A study of Mus musculus with 4 samples.

Results

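The Ly49 receptors are encoded by the Klra genes, and 6 of them were followed here through CD8+ T cells sorted from the BM of mice 4 weeks after SCT: Klra1 (Ly49A), Klra3 (Ly49C), Klra5 (Ly49E), Klra6 (Ly49F), Klra7 (Ly49G) and Klra9 (Ly49I). They were taken by name, as 6 of the 17561 genes in the count table, and each was measured in every cluster and library as CPM, as the share of cells with a UMI, and as its presence beside the others in the same cell. A UMI is a unique molecular identifier and stands for 1 captured RNA molecule. CPM is the sum of a gene's UMIs in a set of cells scaled to a common total of UMIs, and since only the 5′ end of a transcript was read, it carries no term for gene length. The 4 treatment groups were an isotype control antibody with vehicle (cIg), αTIGIT with vehicle, the isotype control with lenalidomide, and αTIGIT with lenalidomide. The antibody was begun at transplantation and lenalidomide on day 14, and CD8+ T cells were harvested on day 28. Recipients were WT or CRBN transgenic mice on a C57BL/6 background, injected with Vk12653 myeloma cells before transplantation. They were given BM and T cells from genetically matched donors, and cells of 5 mice were pooled into 1 library per group. The deposited tables give the libraries as numbers 1 to 4 without a treatment. Values are therefore given for each library or as their range, no treatments were compared, and no test between groups was possible.

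Ly49 receptors are lectin-like dimers on the surface of mouse NK cells and of some T cells, and they bind MHC class I molecules. The 6 members carry an inhibitory motif in their cytoplasmic tail that recruits phosphatases, whereas related receptors such as Ly49D (Klra4) and Ly49H (Klra8) lack it and signal through the adaptor DAP12 (Tyrobp). Ly49C and Ly49I are known to bind class I molecules of the C57BL/6 haplotype, while Ly49A and Ly49G are known mainly for ligands of other haplotypes. In NK cells each receptor is carried by only some of the cells, in many combinations, and the choice is inherited by daughter cells. Among CD8+ T cells, Ly49 receptors are known from memory-like cells that have had little contact with foreign antigen.

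The members lie in 1 cluster on the minus strand of chromosome 6 (GRCm38, GENCODE M21). Klra5 occupies 129898996 to 129917650, Klra6 130013033 to 130026954, Klra9 130178675 to 130193112, Klra7 130218605 to 130233322, Klra3 130323289 to 130337574, and Klra1 130363917 to 130386874. Their coding sequences were 80.1% to 95.9% identical, and they fell into a pair of like sets. Klra1 and Klra7 were 88.0% identical to each other and at most 83.0% identical to the rest, and Klra3, Klra5, Klra6 and Klra9 were 89.1% to 95.9% identical among themselves. Klra3 and Klra9 were the closest pair, with 765 of 798 coding bases the same. None of the stretches of 90 bases from the first 400 bases of any annotated transcript of a member was found in a transcript of another gene, so a read of that length matched a single gene where it held no error, while a shorter read could match both of a close pair.

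The promoters are shown because the members rise together in 1 cluster of cells, as described below. RefSeq (GRCm38.p6) windows from 250 bases before to 50 bases after the start were given for all 6 genes, with a pair of windows for Klra7. In 5 of the 6 genes the window held a closely related stretch of 52 bases on the minus strand, with 45 to 50 identical bases between any pair of them. Capitals mark CTTTGAT, a word known as a binding site of the T cell factor TCF-1, which was searched on both strands together with CTTTGAA.
Klra6, chr6:130027032-130027083: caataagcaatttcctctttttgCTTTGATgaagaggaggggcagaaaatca
Klra7, chr6:130233370-130233421: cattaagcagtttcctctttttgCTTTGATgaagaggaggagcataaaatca
Klra3, chr6:130337604-130337655: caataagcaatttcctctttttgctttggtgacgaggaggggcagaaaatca
Klra9, chr6:130193109-130193160: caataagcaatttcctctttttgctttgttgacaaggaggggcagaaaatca
Klra5, chr6:129913273-129913324: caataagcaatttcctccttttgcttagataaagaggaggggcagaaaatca
CTTTGAT was present in this stretch in Klra6 and Klra7, and in no window of the others. It was found in 3.73% of all 32851 promoter windows, and either word in 8.65%. The stretch was not in the window of Klra1, and CTTTGAA occurred only in the other window of Klra7, on the opposite strand. A match is a description of the letters and not of binding.

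The libraries held 1725 to 4237 cells and 15556967 to 38440687 UMIs, with a median of 7115 to 7669 UMIs per cell. The authors' 8 clusters are used with their names: naive (Tn), central memory (Tcm), transitory Teff, GzmB+ Teff, TIM-3+ Tex, GzmA+ Tex, TIGIT+ Teff and cycling cells, where Teff are effector and Tex exhausted cells. The clusters were made from these same cells, so differences between them are descriptions. The Tcm cluster held 3418 cells. Ccr7 (26.3 CPM in Tcm against 226 CPM in Tn) and Il7r (25.5 against 395 CPM), markers of naive and central memory cells, were far below Tn. Cd8b1, the CD8 β chain, was 217 CPM in Tcm and 934 to 1327 CPM in the other clusters. The NK cell receptor gene Ncr1 was 4.92 CPM in Tcm and Zbtb16, a marker of NKT cells, was 0.273 CPM. There were 56 barcodes that occurred in a pair of libraries, which touched 112 of the 11754 cells.

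Over all libraries, all 6 members were at their highest in Tcm, although for Klra5 the counting interval met that of TIGIT+ Teff. Klra7 led, with 307, 342, 319.5 and 316.5 CPM in the Tcm cells of libraries 1 to 4. The 4 libraries were close to each other, and the highest level of any other cluster was 88.6 CPM, in GzmA+ Tex, with up to 107 CPM in a single library of TIGIT+ Teff. Klra6 followed with 115, 128.5, 98.0 and 122 CPM, Klra3 with 104, 89.7, 97.6 and 108 CPM, and Klra1 with 91.1, 107, 106 and 88.4 CPM. These 3 genes overlapped in level, and their order differed between libraries. Klra9 stood at 25.6, 34.6, 28.9 and 35.8 CPM. Klra5 was the lowest, with 5.56, 7.11, 8.30 and 4.06 CPM.

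**Figure D1:**
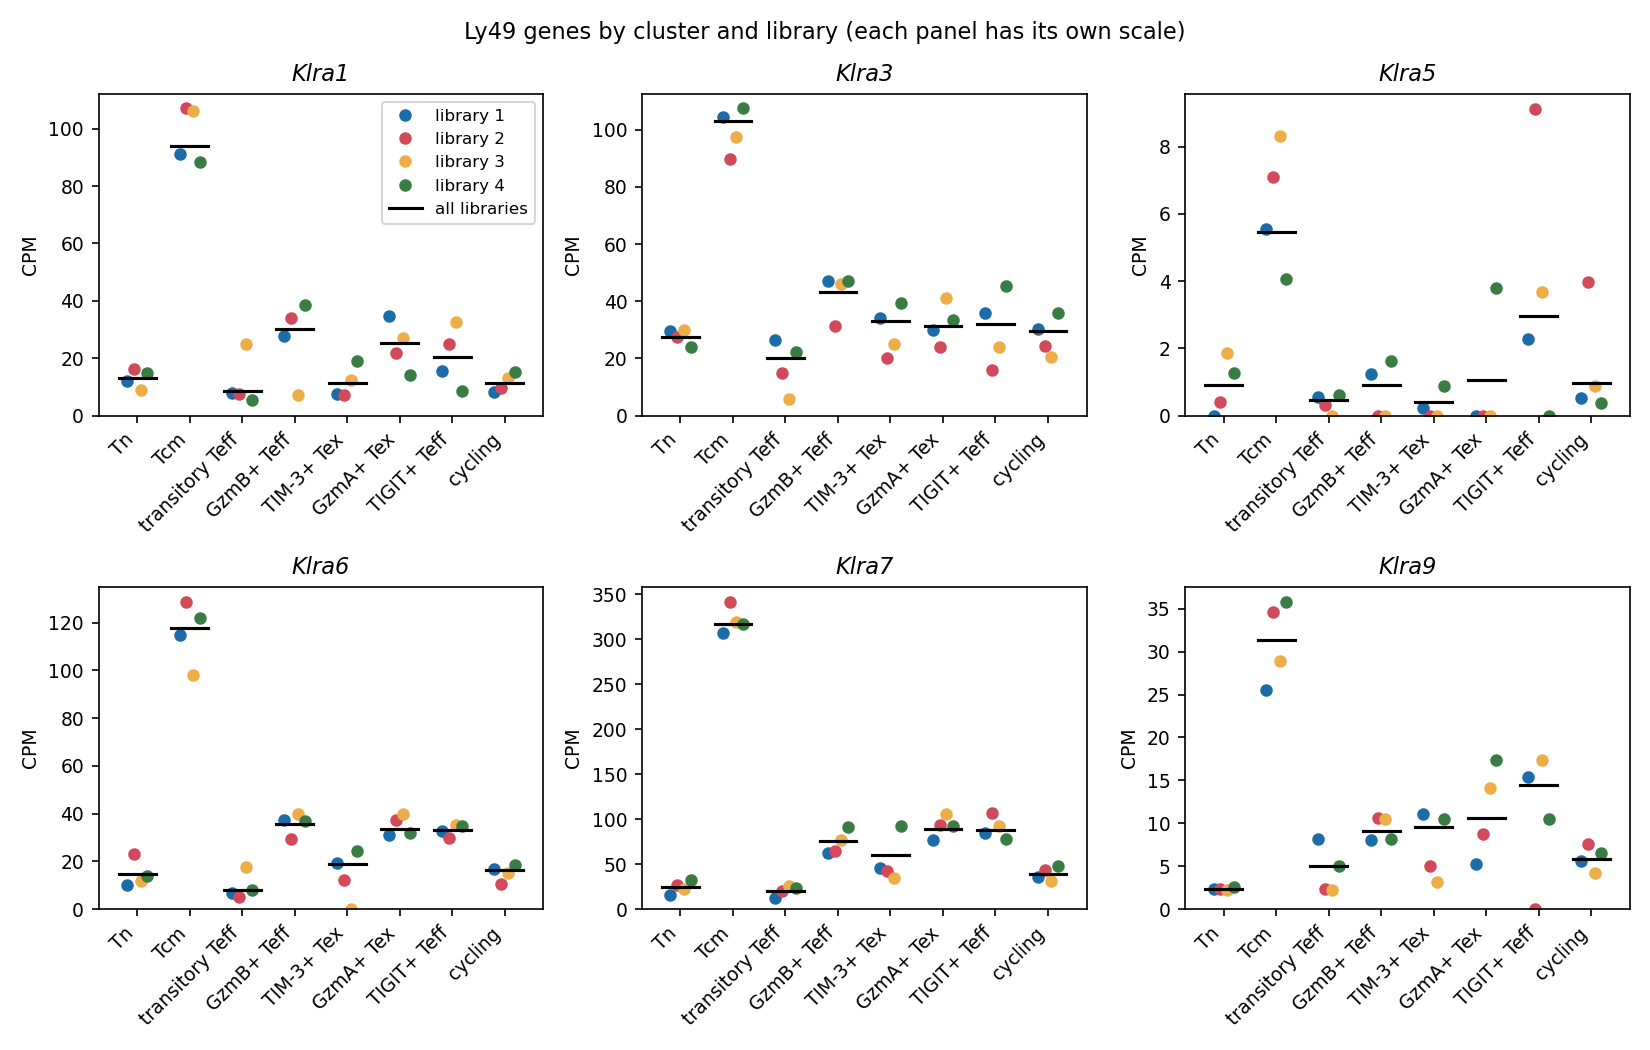
CPM (vertical axes, each panel with its own scale from 0) of the 6 Ly49 genes in the 8 clusters, with a point for each library and a bar for all libraries together. In 5 of the 6 panels the 4 Tcm points lie above every point of the other clusters, the exception being Klra5, where library 2 reached 9.12 CPM in TIGIT+ Teff.

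Set against Tn, the level in Tcm was 12.9-fold for Klra7 (log2 ratio 3.69, interval 3.52 to 3.88), 13.2-fold for Klra9 (3.72, 3.16 to 4.34), 8.02-fold for Klra6 (3.003, 2.77 to 3.24), 7.16-fold for Klra1 (2.84, 2.60 to 3.09), 5.96-fold for Klra5 (2.57, 1.65 to 3.67) and 3.73-fold for Klra3 (1.90, 1.73 to 2.08). These are 95% intervals for counting error only. Summed over the 6 genes, the ratio was 9.32, 7.30, 8.59 and 7.60-fold in libraries 1 to 4. With 10 CPM added and at least 50 CPM in 1 of both clusters, 4 members could be called, Klra1, Klra3, Klra6 and Klra7, and all 4 were at least 2-fold higher in Tcm than in Tn in every library, as were 1.8% of the 2611 genes compared. All 4 were also at least 2-fold higher than in transitory Teff, as were 1.17% of 2826 genes, and than in cycling cells, as were 2.07% of 3278 genes. Against GzmB+ Teff, where 0.402% of 2737 genes were higher, Klra1, Klra6 and Klra7 were called and Klra3 was not, with a log2 ratio of 0.94 in library 3. Klra9 and Klra5 were below 50 CPM. On the same scale Klra9 was at least 2-fold higher than in Tn in every library but not than in transitory Teff, and Klra5 in neither. Since members that passed did so through their level in Tcm, these counts describe the genes and support nothing further.

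Outside Tcm the summed level of the 6 genes was 195 CPM in GzmB+ Teff, 191 CPM in TIGIT+ Teff, 190.5 CPM in GzmA+ Tex, 134 CPM in TIM-3+ Tex, 103 CPM in cycling cells, 83.2 CPM in Tn and 61.7 CPM in transitory Teff, against 668 CPM in Tcm (649 to 709 CPM in single libraries). The first 3 did not differ beyond their counting intervals, and from GzmA+ Tex to transitory Teff neighbours in this order overlapped between libraries. The genes did not fall in step. Klra7 made up 47.4% of the family's UMIs in Tcm (46.9% to 48.5% in single libraries), 46.5% in GzmA+ Tex, 29.4% in Tn and 31.8% in transitory Teff. Klra3 made up 15.4% in Tcm (12.7% to 16.1%), but 33.2% in Tn (27.1% to 42.7%), and 32.4% in transitory Teff, with a wide range of 7.69% to 42.9%. In Tn and transitory Teff the UMIs may be free RNA, as set out below. Over all libraries Klra3 was the member with the most UMIs in Tn, at 27.6 CPM against 24.5 CPM of Klra7, but their intervals overlapped, and in library 4 Klra7 was ahead at 32.0 against 24.1 CPM. Klra6 held 12.8% to 17.7% of the family in 7 clusters and 18.25% in GzmB+ Teff.

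Because deeper cells show more genes, shares of cells were taken after each cell was thinned at random to 2500 UMIs. In Tcm, 41.8% of cells had a UMI of Klra7, 21.8% of Klra6, 16.7% of Klra3, 14.6% of Klra1, 5.82% of Klra9 and 0.878% of Klra5. Any member was found in 67.2% of Tcm cells (64.9% to 69.9% in single libraries), and with all UMIs in 86.02%. In Tn, the thinned share was 11.6% (interval 9.96% to 13.5%) at a median depth of 7834 UMIs before thinning, against 6958 UMIs in Tcm. Transitory Teff lay lower, at 7.09% (5.97% to 8.34%), and a share at or below that of Tn is not read as expression, since free RNA can give such UMIs. The other clusters lay between 14.3%, in cycling cells, and 26.6%, in GzmA+ Tex. With all UMIs, Klra5 was found in 3 of 732 cells of GzmB+ Teff and 3 of 1056 cells of TIM-3+ Tex.

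Members also differed in how much RNA a Tcm cell carried when it carried any. Over all UMIs, a cell with Klra7 had a mean of 4.09 UMIs of it (3.81 to 4.34 in single libraries) and up to 26, and 33.9% of such cells had 5 or more. Cells with Klra3 had 2.94 UMIs (2.82 to 3.27), with Klra5 2.92, with Klra1 2.79 (2.62 to 2.96), with Klra9 2.29 and with Klra6 2.03 (1.89 to 2.07). Klra6 was thus found in more cells than Klra3 or Klra1, 1485 against 896 and 861, at fewer molecules in each. Of the cells with Klra6, 48.2% had a single UMI and 5.99% had 5 or more. The ratio of variance to mean in thinned cells, which is 1 for counts scattered evenly over cells, was 1.41 for Klra6 (1.35 to 1.46) and 1.75 to 2.01 for the other 5. Even Klra5, found in 48 Tcm cells, was concentrated, with 140 UMIs and up to 13 in a single cell.

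Tcm cells carried the receptors in combinations. Among thinned cells, 32.8% had no member, 39.4% had 1, 21.8% had 2, 5.44% had 3, and 16 of 3418 cells had 4 and 2 had 5. With all UMIs, 53.8% of cells had 2 or more (51.8% to 57.2% in single libraries). The most frequent sets with all UMIs were Klra7 alone in 15.9% of Tcm cells, no member in 14.0%, Klra6 with Klra7 in 12.02%, Klra1 with Klra6 and Klra7 in 6.73%, Klra1 with Klra7 in 6.00% and Klra3 alone in 5.85%. No cell had all 6 (0 of 3418, which allows a share of up to 0.0878%).

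Some pairs of members were found together less often, and others more often, than the product of their shares. The odds ratio, taken within libraries and combined over them by the Mantel-Haenszel method, is 1 when a pair is found together as often as the product of both shares. Klra1 and Klra3 were found together in 44 thinned Tcm cells where the product gave 83.4, and their odds ratio was 0.449, 0.437, 0.551 and 0.403 in libraries 1 to 4. All 4 values lay far below 1, and the combined value was 0.439. Klra3 and Klra7 were also apart, in 190 cells against 238 from the product, with 0.785, 0.629, 0.736 and 0.545. Other pairs met more often. Klra6 and Klra7 shared 388 cells against 311 (1.64, 1.41, 1.92 and 1.84), Klra1 and Klra7 shared 264 against 208 (1.70, 1.57, 2.12 and 1.64), and Klra3 and Klra6 shared 172 against 124 (1.72, 1.55, 2.48 and 1.61). Each of these lay above 1 in every library, as did Klra6 and Klra9 (1.15 to 1.72). Klra1 and Klra6 lay above 1 in 3 of 4. The remaining pairs of the 5 more abundant genes lay on both sides of 1, and Klra5, in 30 thinned cells, was too rare to read. Klra3 was thus found less often with Klra1 and Klra7, the like pair by coding sequence, and more often with Klra6. With all UMIs the directions of these 5 pairs held, with 0.450 for Klra1 and Klra3, 0.563 for Klra3 and Klra7, 1.94 for Klra6 and Klra7, 1.55 for Klra1 and Klra7 and 1.74 for Klra3 and Klra6. A second TRB chain, which droplets with a pair of cells can show, was called in 7.16% of Tcm cells with a Ly49 UMI and a TCR, and in 3.52% of those without one, and the directions of these 5 pairs held in cells with a single TRB chain.

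**Figure D2:**
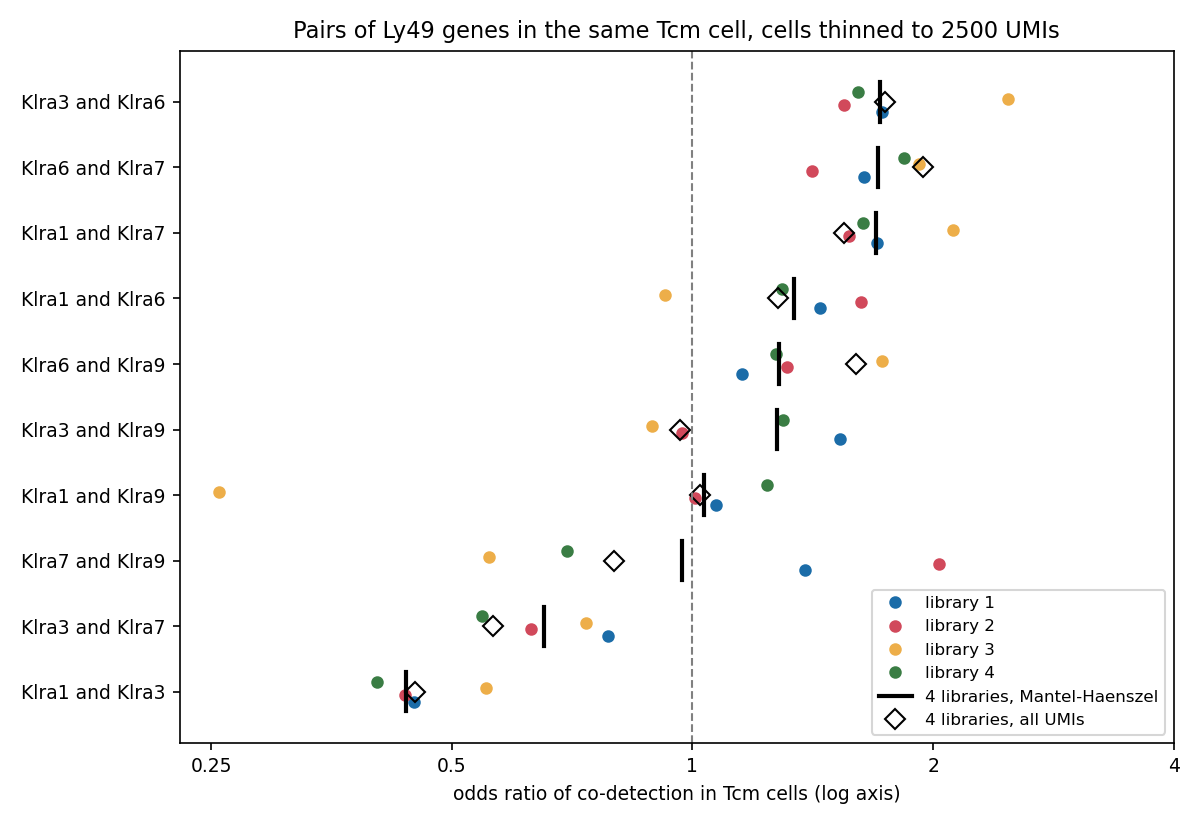
Odds ratio of co-detection in Tcm cells (horizontal log axis, 1 at the dashed line) for the 10 pairs of the 5 more abundant Ly49 genes, with a point for each library, a bar for the libraries combined and a diamond for all UMIs. Klra1 with Klra3 and Klra3 with Klra7 lie below 1 in all 4 libraries, and Klra3 with Klra6, Klra6 with Klra7, Klra1 with Klra7 and Klra6 with Klra9 above it.

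The TCR marks cells that descend from the same T cell, so it was asked whether sister cells of a clone carried the same receptors. A clone was defined within a library by the same deposited clonotype, the nucleotide sequences of the TCR chains called in a cell. Both chains were not required. Of 2331 Tcm cells with a member and a clonotype, 2311 had the CDR3 of a TRB chain, so some clonotypes rested on 1 chain. In Tcm, 89 clones held at least 2 Tcm cells with 194 cells and 127 pairs of sisters, and 78 of these clones held exactly 2. When a sister had Klra3, 83.9% of cells had it as well, against 25.96% of all Tcm cells with a TCR and 9.32% when the sister lacked it. Both sisters had Klra3 in 39 pairs, 1 of them in 15 and neither in 73. For Klra1 the share was 71.4% with a positive sister, 24.7% in all and 5.66% with a negative sister. For Klra7 these shares were 83.5%, 58.1% and 20%, and for Klra9 40.0%, 9.78% and 5.13%. Klra6 was less alike between sisters, at 61.8%, 43.4% and 29.2%. Klra5 was found in no sister pair. In the 78 clones of 2 cells, the share with a positive sister was 73.7% for Klra1, 73.9% for Klra3, 57.6% for Klra6 and 83.7% for Klra7.

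The counts per library were small, and libraries 2 and 3 held only 6 and 5 such pairs. In libraries 1 and 4, with 38 and 78 pairs, the share with a positive sister was 77.8% and 88.2% for Klra3, 85.7% and 64.0% for Klra1, 95.8% and 75.7% for Klra7, and 52.6% and 64.2% for Klra6. In library 2 no sister of a Klra3 cell had Klra3, in 2 informative pairs. After thinning to 2500 UMIs the share with a positive sister fell to 66.7% for Klra3, 60.2% for Klra7 and 38.5% for Klra1, each above the thinned share of all Tcm cells, 16.7%, 41.8% and 14.6%. For Klra6 it fell to 17.8%, which is below its 21.8% in all. In none of the 127 pairs did 1 sister have Klra1 without Klra3 and the other Klra3 without Klra1, while in 48 pairs both sisters had the same 1 of this pair. Cell barcodes of sisters differed at 8 or more bases, so none of these pairs had near-identical barcodes. Outside Tcm, in 943 pairs from clones of 2 to 7 cells, the share with a positive sister was 30.9% for Klra3, 20.3% for Klra7, 15.4% for Klra1, 10.5% for Klra9 and 0% for Klra6 and Klra5, against 5.37%, 2.57%, 0.587%, 0.911%, 0.587% and 0.533% with a negative one. Both sisters had the gene in 21 pairs for Klra3, 6 for Klra7 and 1 each for Klra1 and Klra9, so the last 2 shares rest on single pairs. Of all cells with a TCR outside Tcm, 7.51% had Klra3 and 7.60% Klra7.

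**Figure D3:**
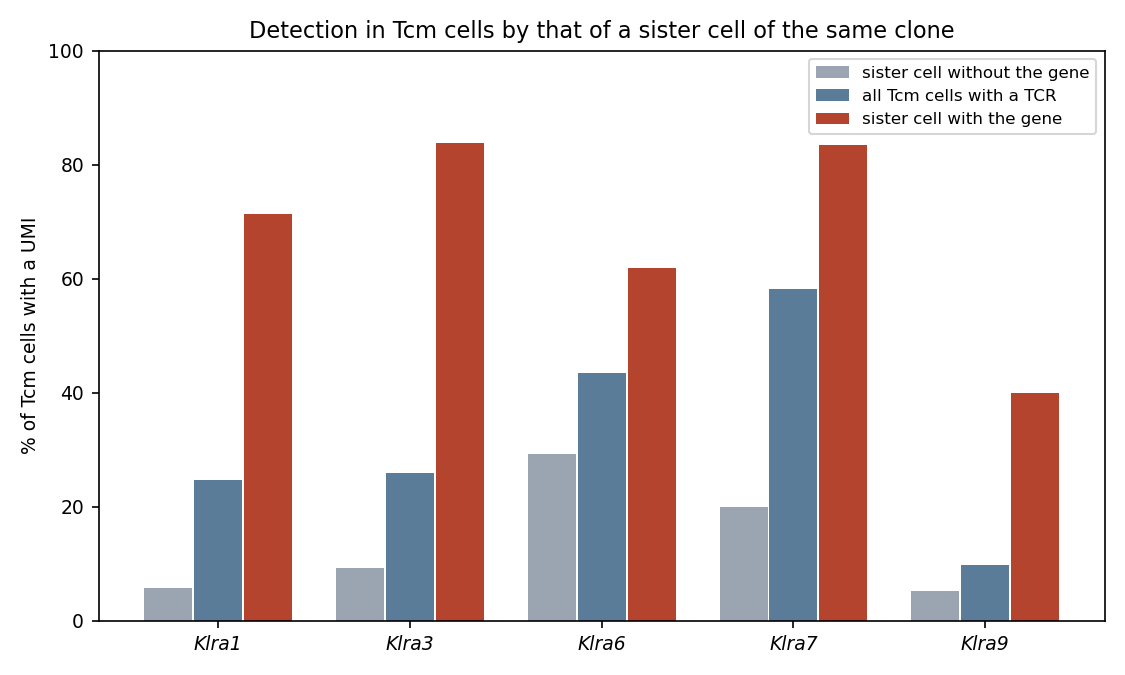
Percent of Tcm cells with a UMI of each Ly49 gene (vertical axis from 0), when a sister cell of the same clone lacked the gene (grey), in all Tcm cells with a TCR (blue) and when a sister cell had it (red), over 127 pairs from 4 libraries, with no error bars since pairs of a clone share cells. Red lies above grey for the 5 genes found in sister pairs, with 9.32% and 83.9% for Klra3 and 29.2% and 61.8% for Klra6.

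Tcm cells with and without a Ly49 UMI were not apart in clone size beyond their counting intervals. Of 2331 Tcm cells with a member and a TCR, 7.98% (interval 6.91% to 9.16%) were in a clone of at least 2 cells in their library, and of 369 without a member 8.67% (6.01% to 12.02%). Single libraries ranged from 3.46% to 10.8% and from 0% to 10.8%. TCR β chain V genes were compared in Tcm cells without a second TRB chain, 2164 with a member and 356 without. TRBV13-3 alone had counting intervals that did not overlap, at 6.52% (5.51% to 7.64%) of cells with a member and 3.09% (1.55% to 5.46%) of cells without. These intervals nearly met, many V genes were compared and single libraries were not, so this is a description only.

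In the clusters other than Tn and Tcm, Ly49 RNA made up more of the UMIs of cells whose clone was seen once than of cells in clones of 8 or more. Cells without a TCR call have no clone size and are left out of this, and in these clusters they held 47.5% (GzmB+ Teff) to 84.8% (TIM-3+ Tex) of the family's UMIs, against 21.9% in Tcm. Their summed level was 93.75 CPM in transitory Teff, 121 CPM in cycling cells, 219 CPM in GzmB+ Teff, 180 CPM in TIM-3+ Tex, 179 CPM in TIGIT+ Teff and 185 CPM in GzmA+ Tex, and 615 CPM in Tcm. Cells with a TCR stood at 44.95, 80.6, 177, 55.4, 226, 205 and 685 CPM in the same order. Cells without a TCR call were deeper in each of these clusters, for example with a median of 12860 against 5664 UMIs in TIM-3+ Tex. Droplets with a pair of cells were not removed here, and their part and that of depth were not tested. In TIGIT+ Teff the summed level was 422, 508, 564 and 609 CPM in single cells of libraries 1 to 4 and 68.7, 0, 6.57 and 60.2 CPM in cells of clones with 8 or more cells. The groups did not overlap. In GzmA+ Tex it was 313 to 389 CPM in single cells and 10.5 to 50.2 CPM in clones of 8 or more, in GzmB+ Teff 141 to 232 CPM and 0 to 22.4 CPM, in TIM-3+ Tex 107 to 390 CPM and 9.83 to 38.3 CPM, and in cycling cells 159 to 247 CPM and 19.5 to 27.8 CPM. Transitory Teff had the smallest distance, with 71.0 CPM in single cells (29.8 to 223 CPM) and 30.3 CPM in clones of 8 or more (13.7 to 38.7 CPM), and there the ranges overlapped. Single cells were higher in all 24 comparisons within a cluster and a library. Some of these rest on few cells, with as few as 5 in a library, and clones of 2 to 7 cells in GzmA+ Tex, which ranged from 0 to 529 CPM over the libraries, had as few as 1 cell in a library. Single cells also had more UMIs at the median in these clusters, for example 7733 against 4581 in GzmB+ Teff and 3598 against 3524 in TIGIT+ Teff, and the part of depth was not tested.

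**Figure D4:**
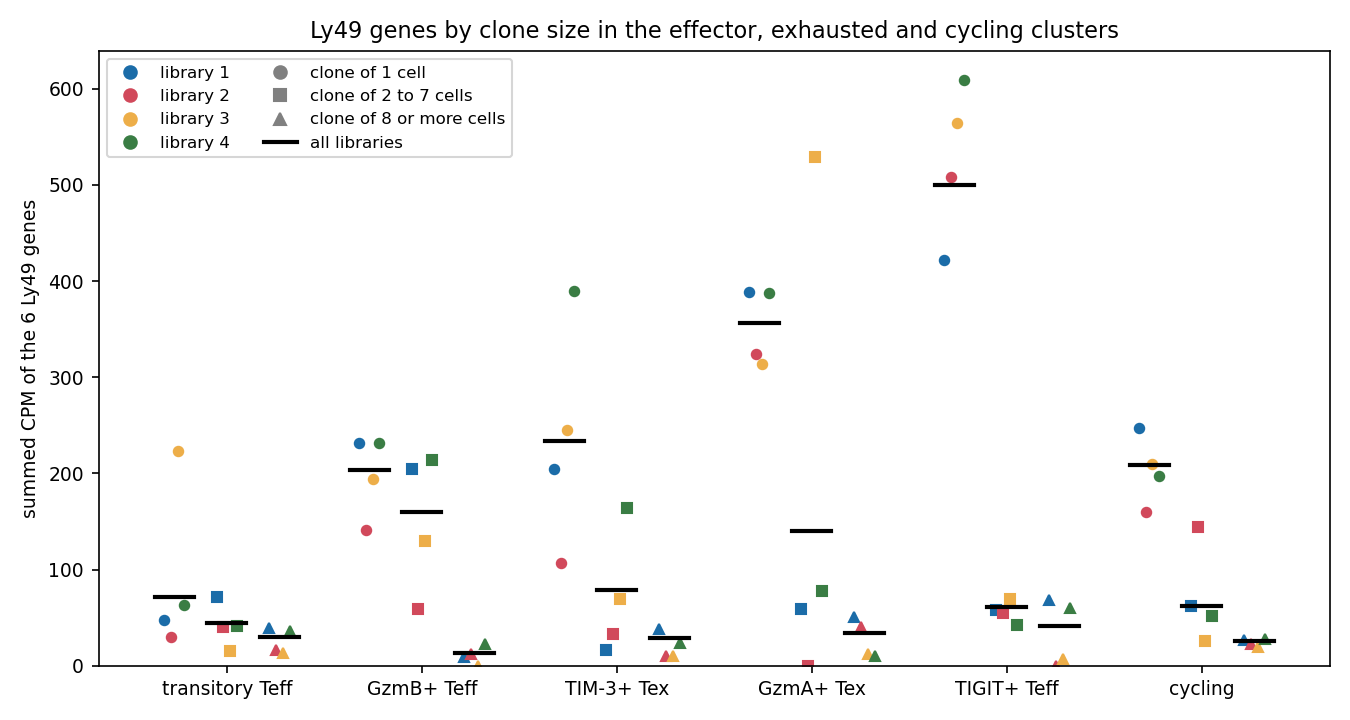
Summed CPM of the 6 Ly49 genes (vertical axis from 0) in the 6 clusters other than Tn and Tcm, by the size of a cell's clone in its library, with a point for each library and a bar for all libraries. Single cells lie above clones of 8 or more cells in every cluster and library, most of all in TIGIT+ Teff, at 499.6 CPM against 41.5 CPM over all libraries.

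Among the 67 clones of 8 or more cells, which held 2209 cells, 19 had no UMI of any member. The members differed in what was left. Over all these cells, of any cluster, Klra3 stood at 12.4 CPM and Klra7 at 8.67 CPM. In the 1258 single cells outside Tn and Tcm these were 40.95 and 83.5 CPM. The mix of clusters was not matched, with 361 single cells against 81 of large clones in GzmB+ Teff, and 42 against 465 in TIM-3+ Tex. Klra6, at 2.37 against 40.9 CPM, and Klra1, at 1.06 against 29.1 CPM, were lower still. At least 50 CPM of Klra3 was found in 9 of the 67 clones, of Klra7 in 5, of Klra9 in 2, and of Klra1, Klra5 and Klra6 in none. A clone of 9 cells in library 1, mostly cycling, had 394 CPM of Klra3 (interval 252 to 586), with 24 UMIs spread over 8 of its 9 cells. The other clones with Klra3 were less even. A clone of 41 cells in library 3 had 63.8 CPM, in 7 cells, and a clone of 35 cells in library 1 had 78.1 CPM, also in 7 cells. For Klra7, a clone of 19 cells in library 4 had 123 CPM (74.3 to 193), but in only 2 cells, and in the other 4 clones with at least 50 CPM all of its UMIs came from 1 cell.

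Tcm cells with a Ly49 UMI (2940) were then set beside those without one (478). The median depth was 7038.5 and 6483.5 UMIs, and some cells without a UMI may carry the receptor unseen. No gene was at least 2-fold apart in every library, which is 0% of the 2590 genes compared, leaving out Klra and TCR variable genes. In 458 genes (17.7%) the sign was the same in all 4 libraries, with 9.92% of genes higher and 7.76% lower. The 10 genes furthest apart in each direction by their smallest distance over the libraries are given as a description, since this contrast chose them.

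Higher with Ly49 were chemokines, other NK receptors and a signalling adaptor. Fcer1g, the Fc receptor γ chain that couples activating receptors, was 280 against 141 CPM, with log2 ratios of (CPM + 10) of 1.46, 1.30, 0.41 and 0.62 in libraries 1 to 4. The chemokines Ccl4 (183 against 91.9 CPM), Ccl3 (69.2 against 33.1 CPM) and Xcl1 (556 against 391 CPM) were higher in every library. So were Klrb1c (253 against 168 CPM), Klre1 (383 against 264 CPM) and Klrc2 (97.5 against 67.4 CPM), which lie beside the Ly49 genes in the NK gene complex, and Ikzf2, which encodes the transcription factor Helios (212 against 136 CPM). Anxa2 and Emc2 completed the 10. Lower with Ly49 were Ly6a, the stem cell antigen Sca-1, with 62.8 against 142 CPM and log2 ratios of -0.72, -1.85, -0.49 and -1.37, and Cd8b1, with 197 against 355 CPM and -0.64, -1.31, -0.72 and -0.86. The chemokine receptor Cxcr6 was 124 against 185 CPM, and Fam169b, Ssbp2, Arl4c, Tuba1b, Txnip, Rbm6 and Ms4a6b followed with smaller distances. With the status taken from thinned cells all 20 kept their direction, but Ccl3 and Ccl4 fell to log2 ratios of 0.13 and 0.32. Markers of NK cells apart from the Klra genes summed to 839 CPM in cells with Ly49 and 546 CPM in cells without. Most of this sum was Klre1 and Fcer1g, which this contrast chose, and Tyrobp, so the sum is no separate support. Tyrobp was 164 against 130 CPM, with a log2 ratio of -0.18 in library 4. The defining Ncr1 was 4.55 CPM with Ly49 and 7.42 CPM without, and markers of γδ T cells summed to 148 and 150 CPM. Macrophage markers summed to 7.59 and 5.26 CPM and plasma and B cell markers to 2.10 and 0.619 CPM. Without cells that had a UMI of Ncr1 or of a γδ TCR constant gene, the 20 directions held and Cd8b1 became at least 2-fold lower in every library, as the only such gene.

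**Figure D5:**
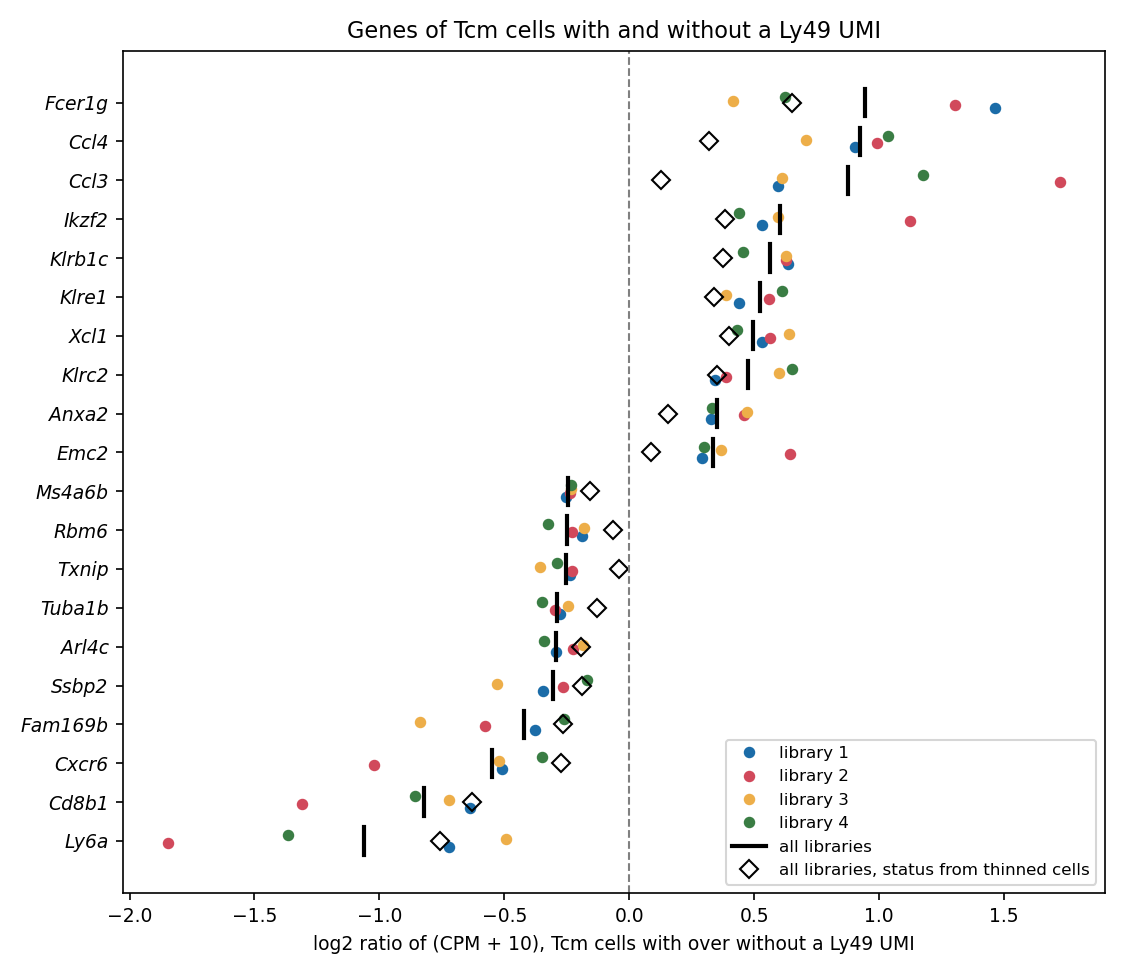
Log2 ratio of (CPM + 10) in Tcm cells with over without a Ly49 UMI (horizontal axis, 0 at the dashed line) for the 20 genes chosen by this contrast, with a point for each library, a bar for all libraries and a diamond for a status taken from thinned cells. Fcer1g, Ccl4 and Ccl3 are furthest to the right and Ly6a and Cd8b1 furthest to the left, and the diamonds lie nearer to 0.

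Cells with a Ly49 UMI were set beside those without one in the other 7 clusters as well, although in Tn and transitory Teff, where the share of such cells is not read as expression, the UMI may be free RNA. Cd8b1 and Ly6a were lower in them in every cluster and library, for example Cd8b1 at 590 against 1279 CPM in GzmB+ Teff. Klrb1c, Fcer1g, Klre1 and Klrc2 were higher in every cluster and library, with Klrb1c at 119 against 16.3 CPM in GzmB+ Teff and 63.3 against 3.08 CPM in cycling cells. The chemokines were not uniform. Ccl4 was lower in all 4 libraries of TIM-3+ Tex (2268 against 3767 CPM), GzmA+ Tex (1093 against 1759 CPM), TIGIT+ Teff (1152 against 1507 CPM) and cycling cells (776 against 1020 CPM), and Ccl3 in all 4 of TIM-3+ Tex (1578 against 2477 CPM) and cycling cells (571 against 748 CPM), opposite to Tcm. Anxa2 was also lower in all 4 libraries of cycling cells, Emc2 in those of TIGIT+ Teff, and Cxcr6 higher in those of Tn. Ssbp2, lower with Ly49 in Tcm, was higher in all 4 libraries of TIM-3+ Tex (21.5 against 7.78 CPM), GzmA+ Tex and cycling cells. Tuba1b was likewise higher in all 4 of Tn and of TIM-3+ Tex, Txnip in all 4 of TIM-3+ Tex and Arl4c in all 4 of cycling cells. For Xcl1, in transitory Teff, GzmA+ Tex and TIGIT+ Teff it was higher in 3 of 4 libraries, and over all libraries of TIGIT+ Teff it was 333 against 391 CPM. In these clusters the cells with Ly49 were deeper, with a median of 9239 against 5326 UMIs in transitory Teff, and the part of depth in these values was not tested. Tcm as a whole had 242 CPM of Klrb1c, against at most 67.2 CPM in any other cluster, and only 217 CPM of Cd8b1. Droplets with a pair of cells were not removed, and the part of those that held a Tcm cell was not tested either.

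Cells that had a single member were also set side by side. With Klra7 alone (544 cells) Fcer1g was 301 CPM (272 to 403 in single libraries), with Klra6 alone (156 cells) 242 CPM (201 to 292.5), with Klra1 alone (146 cells) 182 CPM (100 to 357) and with Klra3 alone (200 cells) 156 CPM (122 to 241.5). Klra3-only cells thus lay nearest to the 141 CPM of cells without a member and below Klra7-only cells, with library ranges that did not overlap. Cd8b1 ran the other way, at 169 CPM with Klra7 alone (115.5 to 234) and 233 CPM with Klra3 alone (214 to 311.5), with ranges that overlapped.

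Genes around the receptors were taken from fixed lists. Of 14 other genes of the NK gene complex, 7 passed the 50 CPM filter between Tcm and Tn, and 5 were at least 2-fold higher in Tcm in every library: Klrb1c (242 against 10.5 CPM), Klrk1 (490 against 62.9 CPM), Klrc1 (461 against 93.6 CPM), Klrc2 (93.7 against 12.6 CPM) and Klre1 (368 against 50.6 CPM). Their list had a median log2 ratio of 2.20, against 0.10 over all genes compared. Of the 2611 genes compared with Tn, 1.8% were called higher in Tcm. Klrb1c and Klrc2 passed the filter only through their level in Tcm, as did Tyrobp, Fcer1g, Ikzf2, Tcrg-C2 and Tcrg-C4 below. The medians and calls of these lists are therefore descriptions and support nothing further. Of 8 adaptors and phosphatases 6 passed, and the adaptors Tyrobp (160 against 9.08 CPM) and Fcer1g (263 against 11.3 CPM) were higher, while no phosphatase was called. Of 9 transcription factors 6 passed and only Ikzf2 (202 against 30.4 CPM) was called. Tcf7, which encodes TCF-1, was 159 CPM in Tcm and 221 CPM in Tn. Against transitory Teff, 4 neighbours (Klrb1c, Klrc1, Klrc2 and Klre1), Tyrobp and Fcer1g were called higher, and no ligand or transcription factor was called. Of all genes compared there, 1.17% were higher and 1.63% lower. The ligands were not called in either comparison: H2-K1 was 3895 CPM in Tcm and 2729 CPM in Tn, H2-D1 2816 and 2105 CPM, and B2m 2747 and 2366 CPM. Of the other lists compared with Tn, none of 9 virtual memory genes or 5 memory markers was called, 3 of 5 naive or central memory markers were lower (Ccr7, Lef1 and Il7r), where 0.574% of all genes compared were lower, and of 4 CD8 T cell markers Cd8b1 was lower. Of 8 NK cell markers 3 passed and were higher (Klre1, Fcer1g and Tyrobp), of 4 γδ T cell markers 2 passed and were higher (Tcrg-C2 and Tcrg-C4), and no macrophage or plasma and B cell marker passed. Between Tcm cells with and without Ly49, 5 of 7 neighbours (Klrb1c, Klrk1, Klrc2, Klre1 and Cd69) and 4 of 6 transcription factors (Tcf7, Eomes, Tbx21 and Ikzf2) were higher in all 4 libraries, as were 9.92% of the 2590 genes compared, and 0 of 3 ligands. For Tcf7 the log2 ratio over all libraries was only 0.03, with a counting interval of -0.10 to 0.17.

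The pattern of the family over the 32 profiles of a cluster in a library was most like that of Cym, the gene of the protease chymosin, with a Pearson correlation of 0.964 of log2(CPM + 10) among 4070 genes compared. Klrb1c (0.952), Klrc2 (0.923), Ccdc136 (0.903) and Klrc1 (0.863) followed. Cym stood at 75.6 CPM in Tcm (71.9 to 87.4 in single libraries) and at most at 21.6 CPM elsewhere. It led for Klra1 (0.824), Klra5 (0.629) and Klra6 (0.957) as well, Klrb1c for Klra7 (0.955) and Klra9 (0.882), and Rnf130 for Klra3 (0.842). Profiles of a library share cells sorted together and the 4 Tcm profiles stand apart from the rest, so these values describe the likeness only.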

How the data were processed

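CD8+ T cells were sorted from BM and sequenced on a 5′ droplet platform with TCR libraries. The authors deposited raw UMI counts per gene and cell, made with Cell Ranger 7.00 on mm10 per the submitters' processing notes, after downsampling libraries to a similar read depth per library and keeping cells with 2502 to 24983 UMIs in the files, limited mitochondrial reads and CD3 and CD8 expression. The deposited cell table gives the authors' clusters and the mitochondrial fraction. Doublet removal is not given in the sources used here, and none was done.

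UMIs were summed per cluster and library into CPM with exact Poisson 95% intervals, and shares have exact Clopper-Pearson intervals. For a count of 0 the limit given is that of 3 counts. These cover counting error only. Cells were thinned to 2500 UMIs with seed 7. Genes were called at a difference of at least 2-fold in every library, with 10 CPM added and at least 50 CPM in either set. The named genes of the contrast within Tcm were the 10 in each direction with the largest smallest difference over libraries. The members and lists were chosen with earlier results of these data known. Python 3.11.15, numpy 2.4.6, scipy 1.17.1, pandas 2.3.3 and Biopython 1.88 were used, and the contrast was tested on simulated data. Libraries were not assigned to treatments, so treatments were not compared, and with 1 library per group no test was made. Alternatives were other depths, UMI minimums, cluster and clone definitions, cells with 1 TRB chain, and leaving out each library. A marker gene of a fixed list is not reported here.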

Additional observations from a re-analysis of the deposited data

Results flagged for a closer look

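Outside the 6 members, 3 Ly49 genes were detected in Tcm at more than 0.117 CPM, the level of 3 UMIs, which is what a gene with no UMI could still have. Klra8, which encodes the activating receptor Ly49H, was 7.49 CPM (192 UMIs, 5.31 to 9.61 CPM in single libraries), and at most 3.76 CPM in any other cluster over all libraries, although library 2 reached 13.7 CPM in TIGIT+ Teff on 6 UMIs. Klra10 was 1.09 CPM in Tcm (28 UMIs) and at most 0.779 CPM in any other cluster over all libraries, with up to 1.74 CPM in a single library of TIGIT+ Teff. Klra4, which encodes the activating receptor Ly49D, was 0.507 CPM in Tcm (13 UMIs) and 2.11 CPM in Tn (23 UMIs). No sample was tested for standing apart and no groups were compared, since the libraries carry no treatment.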

How the results depend on the processing

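Each result had a range, the counting interval or, for odds ratios and the genes named within Tcm, the range over libraries. The count of genes 2-fold apart had to stay the same. Values with a library left out fall in a range over libraries almost by construction, and 236 of all alternatives left out a library. How many values stayed in range is therefore no measure of how firm they are. Of 432 alternatives over 59 results, 349 left the value within its range, 78 moved it and 5 turned its direction. The 5 concern pairs with Klra9: the odds ratio with Klra1 (1.03) was 0.852 to 1.15 with a library left out, the lowest without library 4, that with Klra3 (1.27) was 0.964 with all UMIs, and that with Klra7 (0.969) was 1.03 with cells of 1 TRB chain, 0.841 to 1.29 with a library left out, above 1 without library 3 (1.03) and without library 4. The family's CPM in Tcm (668) was 689.8 after thinning and 684 with clusters from the Leiden number. Its log2 ratio over Tn (3.01) was 3.13 as a mean over cells, 3.13 after thinning and 2.53 with the Leiden number. The share of Tcm cells with a member (67.2%) was 86.02% with all UMIs and 44.4% with 2 UMIs needed, and that with 2 or more members (27.8%) was 53.8% and 31.3%. With all UMIs the odds ratio was 1.55 for Klra1 and Klra7 and 1.94 for Klra6 and Klra7. The count of genes at least 2-fold apart within Tcm went from 0 to 1 without cells with an NK or γδ UMI. With clones from the TRB CDR3, 13.5% of Tcm cells with and 15.6% without a member were in clones of 2 or more, and leaving out a library gave 5.91% to 8.85% of cells with a member, the lowest without library 4. The Klra3 share with a positive sister was 66.7% after thinning, and 72.0% to 85.7% with a library left out, the lowest without library 4. The sister cell and NK or γδ alternatives were chosen after seeing the data. The cause of these shifts was not tested. No paired analysis was possible because the libraries could not be assigned to groups. Depth limits the shares, since a cell without a UMI may carry the RNA, and libraries 2 and 3 give few sister pairs.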
